A study of Mus musculus with 18 samples.

Results

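The class I and class II histone deacetylases (HDACs) were followed at the mRNA level in B16 cells, a mouse melanoma line, treated with PB-4 or with ATRA. The 10 genes, Hdac1 to Hdac10, were taken by symbol from a table of counts per gene, and all 10 were among its 46068 genes. Hdac1, Hdac2, Hdac3 and Hdac8 make up class I. Hdac4, Hdac5, Hdac7 and Hdac9 form class IIa, and Hdac6 and Hdac10 class IIb. The filter on low counts (a sum of 10 or more in a comparison) removed none of them.

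PB-4 is sodium 4-phenylbutanoate, a short-chain fatty acid salt known to inhibit HDAC enzymes, and ATRA is all-trans retinoic acid, the ligand of the retinoic acid receptors. The study used both to induce the differentiation of B16 cells, and total RNA was sequenced from 3 libraries of the PB-4 group, 3 of the ATRA group and 3 of the Control group. By the labels the groups shared the B16 line and differed only in treatment. The label of origin names skin tissue, while the libraries were taken here as the cultured line. The dose and duration for the sequenced cells, the vehicle of the Control group and whether the 3 libraries of a group came from separate cultures were not stated in the labels or the methods. The p-values below therefore measure only the spread between these samples, which may be technical.

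HDACs remove acetyl groups from lysines of histones and other proteins, and on chromatin they mostly act in corepressor complexes. HDAC1 and HDAC2 are the shared catalytic pair of the Sin3, NuRD, CoREST and MiDAC complexes, while HDAC3 works in the NCoR/SMRT complex, which unliganded retinoic acid receptors recruit. Class IIa enzymes have little catalytic activity of their own, bind MEF2 transcription factors and leave the nucleus when kinases mark them for adaptor proteins of the Ywha family. HDAC6 deacetylates tubulin and the chaperone HSP90 in the cytoplasm, and HDAC10 deacetylates polyamines. Only mRNA was measured here. Neither enzyme activity nor acetylation was part of these data.

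Depth was 13928215 to 35832073 counts in the PB-4 libraries, 12632669 to 36176443 in the ATRA libraries and 17006638 to 32633226 in the Control libraries, and replicate 3 was the shallowest of each group. All 8 melanocyte markers examined had counts in every group, with summed levels of 6819 to 8363 CPM (counts scaled to library size) with PB-4, 7859 to 10230 CPM with ATRA and 12260 to 14680 CPM in Control. Markers of keratinocytes, the main cell type of the epidermis, summed to at most 4.03 CPM with PB-4, 0.139 CPM with ATRA and 0.128 CPM in Control. Marker levels of other cell types differed between the groups and are given beside the Hdac9 result. In such bulk samples fewer cells of a type and less RNA per cell cannot be told apart.

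Start-site sequences are shown for Hdac9, the member whose mRNA changed most, and for Hdac2 and Hdac6, whose libraries shared an offset of replicate 3 in opposite directions. RefSeq windows on GRCm38.p6, 250 bases before to 50 bases after an annotated start, were given for 7 of the 10 members (11 windows in all). Capitals mark CG dinucleotides, the main sites of DNA methylation in mammals.
Hdac9 (chr12:34917046-34917345, minus strand): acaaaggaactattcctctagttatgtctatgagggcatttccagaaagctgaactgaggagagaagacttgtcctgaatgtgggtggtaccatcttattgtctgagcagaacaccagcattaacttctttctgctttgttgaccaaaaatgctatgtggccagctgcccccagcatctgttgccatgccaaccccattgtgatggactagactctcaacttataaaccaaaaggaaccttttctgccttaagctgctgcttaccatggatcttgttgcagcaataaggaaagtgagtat
Hdac9 (chr12:34528840-34529139, minus strand): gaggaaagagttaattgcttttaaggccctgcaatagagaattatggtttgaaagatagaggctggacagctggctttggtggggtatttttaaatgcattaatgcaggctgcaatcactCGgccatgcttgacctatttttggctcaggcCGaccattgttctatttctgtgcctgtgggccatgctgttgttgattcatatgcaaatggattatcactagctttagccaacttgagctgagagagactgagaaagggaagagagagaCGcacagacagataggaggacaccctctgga
Hdac2 (chr10:36974294-36974593, plus strand): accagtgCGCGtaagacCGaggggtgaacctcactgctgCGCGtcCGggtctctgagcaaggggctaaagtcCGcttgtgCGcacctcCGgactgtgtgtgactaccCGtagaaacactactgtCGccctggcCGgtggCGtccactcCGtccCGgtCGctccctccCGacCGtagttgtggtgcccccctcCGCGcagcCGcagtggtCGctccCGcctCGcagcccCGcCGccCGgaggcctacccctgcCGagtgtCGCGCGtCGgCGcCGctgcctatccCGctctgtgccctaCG
Hdac6 (chrX:7947840-7948139, minus strand): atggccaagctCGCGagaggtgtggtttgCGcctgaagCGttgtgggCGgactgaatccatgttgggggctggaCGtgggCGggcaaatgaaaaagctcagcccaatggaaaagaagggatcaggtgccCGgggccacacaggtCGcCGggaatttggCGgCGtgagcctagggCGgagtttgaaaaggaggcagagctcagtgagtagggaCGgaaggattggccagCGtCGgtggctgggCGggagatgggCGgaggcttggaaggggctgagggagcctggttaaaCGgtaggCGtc

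The window at the 5′ end of Hdac9 held 0 CG dinucleotides and the internal one 3, at 44.0% and 45.3% G and C. The window of Hdac2 held 36 at 69.7%, and that of Hdac6 held 20 at 62.0%. Over all 32851 windows the median was 7 CG dinucleotides and 52.7% G and C. Of those windows 5.43% had 0, 31.4% had 3 or fewer, 26.5% had 20 or more and 6.23% had 36 or more. The low-CG end was thus also reached by many other genes. The letters GGGCGG (the GC box, searched on both strands) occurred 5 times each in the windows of Hdac4 and Hdac6, 1 time in those of Hdac2, Hdac5 and 1 of the 4 of Hdac7, and 0 times in those of Hdac9, while 35.7% of all windows held them. The core of the MEF2 binding site, with only A or T in its middle, occurred 1 time in the window of Hdac5 and 0 times in the others, against 0.557% of all windows. CCAAT was in 37.4% of all windows and 2 times each in those of Hdac4, Hdac5, Hdac6 and Hdac8, and CATGTG, the core of the M-box of pigment genes, was in 14.2% and in none of these. These are letter matches and not tested sites, and counts per gene do not tell which start was used.

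In PB-4-treated cells Hdac9 was several times higher than in Control, and it was the only member of the 10 that passed the test in the fit by group alone. With the replicate number as a block (a term that compares libraries of the same number), Hdac6 and Hdac7 were also higher and Hdac2 and Hdac10 lower. No label states that libraries of the same number were paired, and the block mainly set replicate 3 apart. Hdac9 encodes a class IIa repressor of MEF2 targets (chr12:34047580-34917095). Its levels were 7.94, 9.67 and 9.14 CPM in the PB-4 libraries, 0.751, 1.66 and 0.172 CPM in the ATRA libraries and 2.05, 1.36 and 1.86 CPM in the Control libraries. All 3 PB-4 libraries lay above all libraries of the other groups, and the lowest value came from 2 counts in ATRA replicate 3. Mean levels were 8.92 ± 0.882 CPM with PB-4 and 1.76 ± 0.357 CPM in Control (SD, n = 3 each), a 5.04-fold difference (log2 fold change 2.33 ± 0.36 SE, edgeR adjusted p = 0.00405). The change ran from 2.18 to 2.47 when each library was left out in turn, and the adjusted p from 4.8e-11 to 0.0280 over all alternatives. Counts rest on 205, 374 and 135 reads with PB-4 and on 55, 43 and 29 in Control. A ratio within a library needs no scaling between libraries, and Hdac9 to Hdac4 counts, chosen after the values were seen, stood at 0.115, 0.159 and 0.185 with PB-4, 0.0155, 0.0395 and 0.0033 with ATRA and 0.0231, 0.0214 and 0.0300 in Control.

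Some markers of other cell types were higher in the same PB-4 libraries. The 9 fibroblast markers summed to 359.0 to 1391 CPM with PB-4, 9.46 to 20.8 CPM with ATRA and 19.5 to 26.2 CPM in Control, with Thy1 at 0 in all 9 libraries. Most of the PB-4 sum came from Col1a1 (234.0, 284.3 and 1248 CPM) and Pdgfra (89.9, 87.5 and 66.8 CPM). Dcn, Lum and Fap had at most 0.813 CPM in any library. The 8 neuronal markers summed to 299.7 to 357.9 CPM with PB-4, 70.9 to 73.9 CPM with ATRA and 94.96 to 150.0 CPM in Control, with Nefl and Nefm at 0 throughout. Most of the PB-4 sum came from Tubb3 (94.5, 112.0 and 194.9 CPM) and Map2 (224.7, 170.1 and 158.2 CPM). Snap25 and Stmn2 had at most 0.0677 CPM. The 8 immune markers summed to 36.4 to 44.1 CPM with PB-4, 4.37 to 7.31 CPM with ATRA and 11.6 to 16.7 CPM in Control, with Cd3e at 0 throughout. Most of the PB-4 sum came from Lyz2 (23.1, 25.5 and 21.4 CPM) and Cd68 (13.9, 17.1 and 13.95 CPM), while Ptprc had at most 1.03 CPM. The 4 endothelial markers stayed at or below 1.22 CPM, with Kdr at 0. Against Control, edgeR called 5 of the 9 fibroblast markers and 3 of the 8 neuronal ones higher with PB-4. It also called 2 of the 8 immune and 1 of the 6 keratinocyte markers higher, and 3 of the 8 melanocyte markers lower. Over all genes tested 11.5% were higher and 4.59% lower. Col3a1, Lum, Rbfox3, Adgre1 and Trp63 reached the minimum count only because of the PB-4 libraries and so had to differ. The marker counts are therefore not read as a result. The part of these marker shifts in the Hdac9 difference was not tested.

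**Figure D1:**
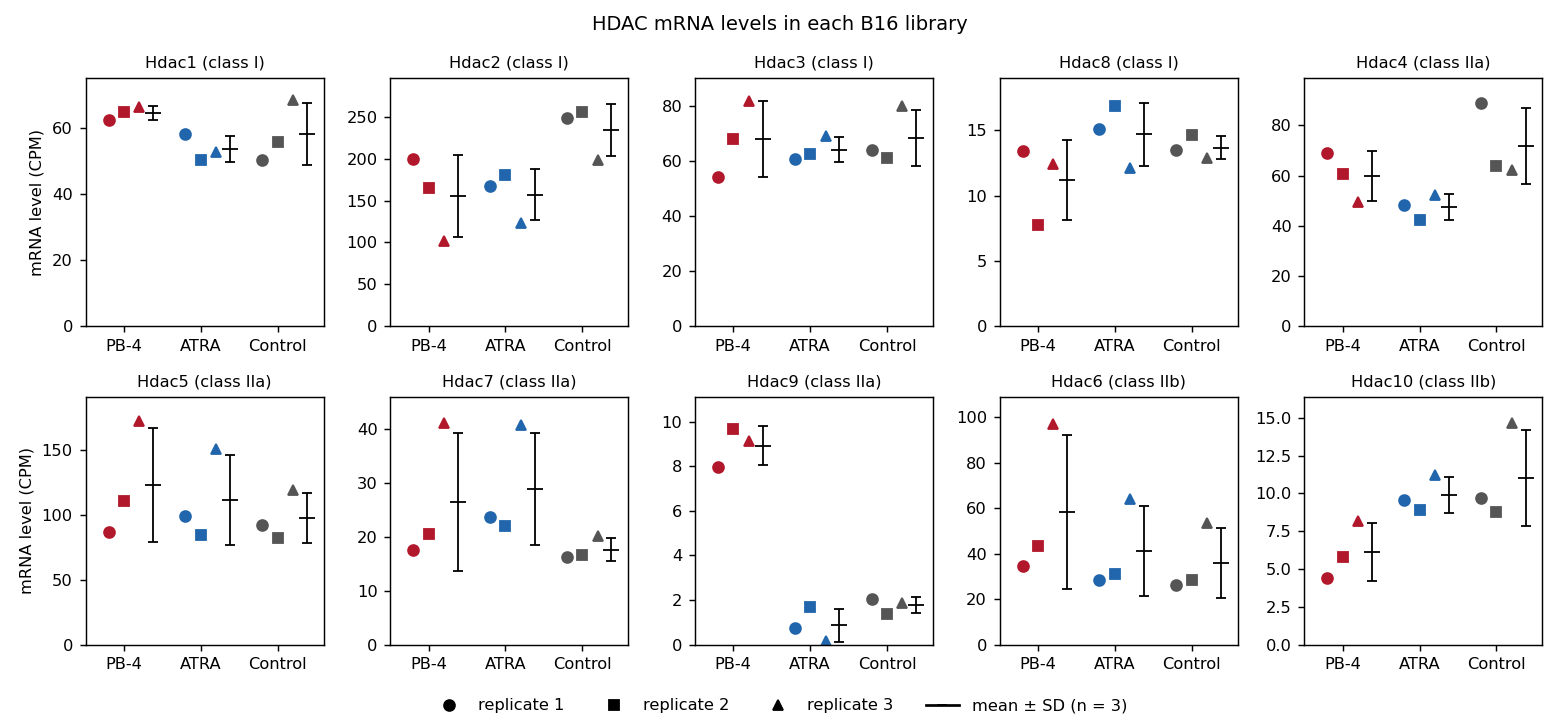
Levels of the 10 HDAC mRNAs in CPM (vertical axes, from 0) in each library of the PB-4, ATRA and Control groups. Symbols are replicates 1 to 3 and bars the mean ± SD (n = 3). Hdac9 lies at 7.94 to 9.67 CPM in the PB-4 libraries, above every ATRA and Control library, and replicate 3 is the highest of its group for Hdac3, Hdac5, Hdac6, Hdac7 and Hdac10.

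Across the 10 members, 1 was higher with PB-4 than in Control and 0 were lower. Of all 19450 genes tested, 11.5% were called higher and 4.59% lower. The members' share of higher calls was thus 1 of 10 against that background, too close to read an excess from it. Their median log2 fold change was 0.07, beside 0.03 over all genes. At unadjusted p below the threshold edgeR listed 2 members, Hdac9 and Hdac10. With the replicate block 3 members were higher, at 23.1% of all genes, and 2 were lower, at 21.3%.

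The other class IIa genes showed smaller differences. Hdac4 (chr1:91928779-92195702), whose product holds MEF2 targets silent, had 69.1, 60.7 and 49.5 CPM with PB-4 and 89.1, 63.7 and 62.1 CPM in Control. Hdac5 (chr11:102195747-102230172), a close relative with the same partners, had 86.7, 110.7 and 172.3 CPM with PB-4 and 92.2, 82.0 and 119.5 CPM in Control. The groups overlapped for both, and neither difference passed the test (Hdac4 -0.27 ± 0.24, adjusted p = 0.485; Hdac5 0.33 ± 0.29, adjusted p = 0.474). Hdac7 (chr15:97792661-97844502), best known from endothelial cells and thymocytes, had 17.6, 20.5 and 41.1 CPM with PB-4 and 16.2, 16.6 and 20.03 CPM in Control. The high PB-4 value was that of replicate 3, and without a block the difference did not pass (0.58 ± 0.34, adjusted p = 0.284). With the replicate block Hdac7 was higher (0.47 ± 0.18, adjusted p = 0.0425). Its span shares 32 bases with the heme transporter gene Slc48a1, which had 137.3, 172.8 and 324.9 CPM with PB-4 and 68.5, 90.6 and 175.3 CPM in Control. It also shares 11348 bases with the noncoding RNA gene Gm33636. That gene had 0.581, 0.775 and 0.948 CPM with PB-4 and 0.112, 0.158 and 0.128 CPM in Control (2.46, edgeR adjusted p = 0.0352). Since the strand used in counting was not stated, reads of overlapping genes could have been split between them.

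Of the class I genes none passed without the block. Hdac1 (chr4:129516104-129542646) had 62.5, 64.9 and 66.6 CPM with PB-4 and 50.2, 55.8 and 68.6 CPM in Control (0.15 ± 0.20, adjusted p = 0.656). Reads of this gene could also be shared with its annotated pseudogene Hdac1-ps. Its partner Hdac2 (chr10:36974297-37001889) had 199.8, 164.7 and 102.2 CPM with PB-4 and 248.5, 256.4 and 198.2 CPM in Control. The highest PB-4 library stood just above the lowest Control library, and the difference did not pass (-0.60 ± 0.28, adjusted p = 0.181). Within each replicate number Hdac2 was lower with PB-4, by log2 ratios of -0.31, -0.64 and -0.95, and with the replicate block it was lower (-0.64 ± 0.12, adjusted p = 2.2e-04). Hdac3, the enzyme of the NCoR/SMRT complex, had 54.5, 68.0 and 82.1 CPM with PB-4 and 64.2, 61.4 and 80.1 CPM in Control. The means were nearly equal, at 68.2 ± 13.8 and 68.5 ± 10.1 CPM (-0.01 ± 0.22, adjusted p = 0.977), and the sign changed with the scaling. Hdac8 (chrX:102284638-102505381), whose product deacetylates cohesin, had 13.5, 7.73 and 12.4 CPM with PB-4 and 13.5, 14.6 and 12.9 CPM in Control (-0.30 ± 0.30, adjusted p = 0.546), a difference carried by PB-4 replicate 2.

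The PB-4 means of the class IIb genes lay on opposite sides of Control, and neither difference passed without the block. Hdac6 (chrX:7930116-7948047) had 34.5, 43.3 and 97.0 CPM with PB-4 and 26.1, 28.2 and 53.5 CPM in Control. Replicate 3 was far above the other libraries of its group in both, so that the groups overlapped and the difference did not pass (0.70 ± 0.43, adjusted p = 0.302). Within replicate numbers the log2 ratios were 0.40, 0.61 and 0.85, and with the block Hdac6 was higher (0.62 ± 0.13, adjusted p = 6.4e-04). Hdac10 (chr15:89123303-89128700) had 4.38, 5.81 and 8.19 CPM with PB-4 and 9.67, 8.74 and 14.6 CPM in Control. At these levels all PB-4 libraries lay below all Control libraries. Scaled by library totals alone, PB-4 replicate 3 (8.69 CPM) stood above Control replicate 2 (8.46 CPM). The difference did not pass without the block (-0.85 ± 0.36, adjusted p = 0.140) and passed with it (-0.86 ± 0.23, adjusted p = 0.00446). The ratio of Hdac6 to Hdac10 counts, chosen after the values were seen, was 7.89, 7.45 and 11.8 with PB-4, 2.98, 3.49 and 5.74 with ATRA and 2.70, 3.22 and 3.65 in Control.

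**Figure D2:**
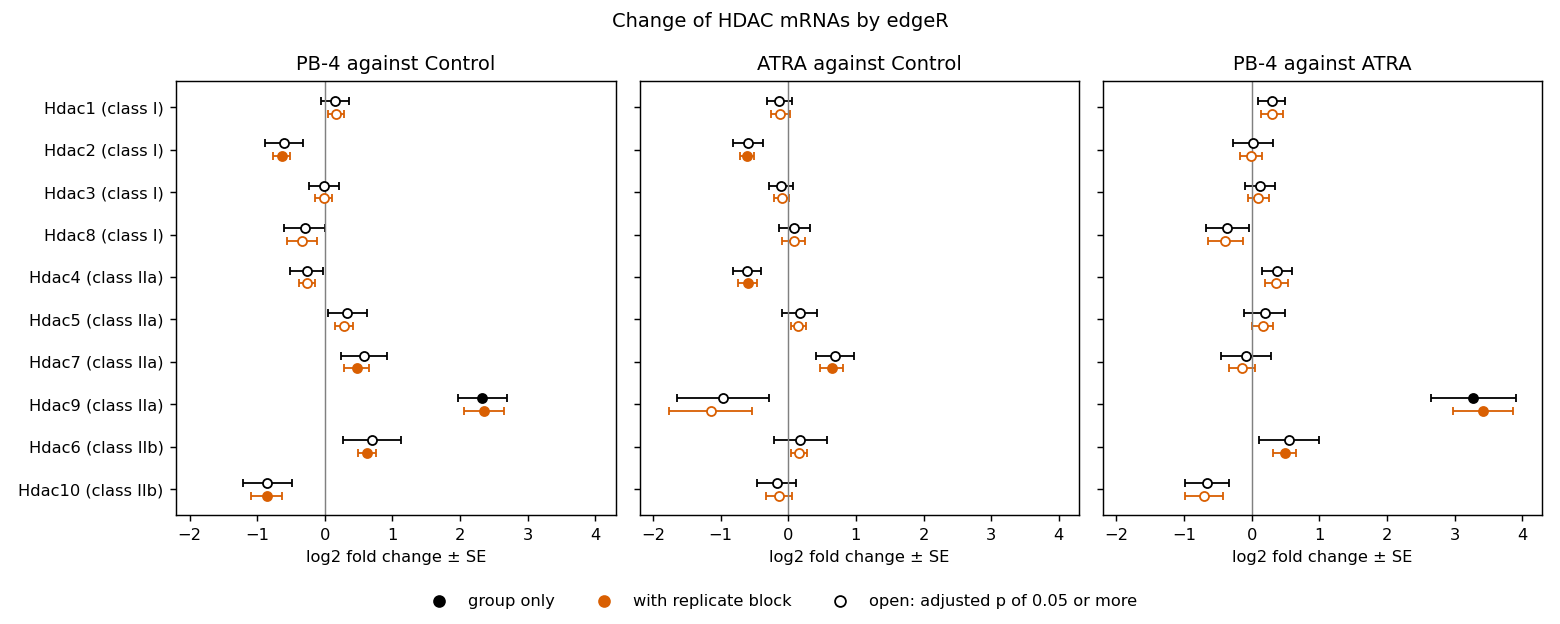
Log2 fold change ± SE of each HDAC mRNA by edgeR (horizontal axes) for PB-4 against Control, ATRA against Control and PB-4 against ATRA, without (black) and with (orange) the replicate block. Filled points have an adjusted p under 0.05. Without the block Hdac9 alone is filled, at 2.33 in the left panel and 3.28 in the right panel, and none is filled for ATRA against Control.

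In ATRA-treated cells no HDAC mRNA passed the test against Control by edgeR, and 3 members (Hdac2, Hdac4 and Hdac7) had an unadjusted p below the threshold. DESeq2 called 0 members as well. Of all 17911 genes tested, 0.441% were higher and 0.625% lower. The members' median log2 fold change was -0.12, beside -0.00 over all genes. With the replicate block 1 member was higher, at 7.53% of all genes, and 2 were lower, at 10.8%.

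Hdac2 had 167.2, 180.8 and 122.7 CPM with ATRA and 248.5, 256.4 and 198.2 CPM in Control. All ATRA libraries lay below all Control libraries (-0.60 ± 0.22, adjusted p = 0.239, and -0.61 ± 0.11, adjusted p = 0.00909, with the block). Hdac4 had 48.3, 42.1 and 52.1 CPM with ATRA and 89.1, 63.7 and 62.1 CPM in Control, again without overlap (-0.61 ± 0.21, adjusted p = 0.221, and -0.60 ± 0.14, adjusted p = 0.0234, with the block). Hdac7 had 23.7, 22.0 and 40.7 CPM with ATRA and 16.2, 16.6 and 20.03 CPM in Control. Here the ATRA libraries were all higher (0.69 ± 0.28, adjusted p = 0.289, and 0.64 ± 0.17, adjusted p = 0.0313, with the block). The overlapping gene Slc48a1 had 282.6, 319.8 and 324.9 CPM with ATRA (1.46, adjusted p = 0.0893).

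The remaining members passed neither without nor with the block in ATRA-treated cells. Hdac1 had 58.1, 50.4 and 52.8 CPM with ATRA (-0.13 ± 0.19, adjusted p = 0.796), and Hdac3 had 60.8, 62.7 and 69.4 CPM (-0.11 ± 0.18, adjusted p = 0.826). Hdac8 had 15.1, 16.9 and 12.1 CPM (0.09 ± 0.23, adjusted p = 0.892) and Hdac5 had 99.3, 84.5 and 151.2 CPM (0.17 ± 0.26, adjusted p = 0.808). All of these overlapped with Control. Hdac6 had 28.5, 31.2 and 64.2 CPM (0.18 ± 0.39, adjusted p = 0.867) and Hdac10 had 9.56, 8.93 and 11.2 CPM (-0.17 ± 0.29, adjusted p = 0.826), close to their Control values. Hdac9 averaged 0.862 ± 0.752 CPM with ATRA and 1.76 ± 0.357 CPM in Control, on 23, 60 and 2 counts with ATRA and 55, 43 and 29 in Control. The groups overlapped through ATRA replicate 2, and the change of -0.97 ± 0.68 (adjusted p = 0.544) became -1.83 without that library and -0.54 without ATRA replicate 3.

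PB-4 and ATRA were also set against each other directly, since their comparisons with Control share the Control libraries. Hdac9 was higher with PB-4 than with ATRA by 9.71-fold, at 8.92 ± 0.882 and 0.862 ± 0.752 CPM (log2 fold change 3.28 ± 0.63, edgeR adjusted p = 0.0100). Within replicate numbers the log2 ratios were 2.76, 2.23 and 3.84. Without ATRA replicate 1 the call was lost (3.16, adjusted p = 0.0520), and without ATRA replicate 2 or 3 the change was 4.15 and 2.88. No other member passed without the block, so 1 of 10 was higher and 0 were lower, at 10.3% and 1.94% of all 19521 genes. The members' median was 0.15, beside 0.04 over all genes. With the block 2 members were higher and 0 lower, at 18.7% and 11.1% of all genes.

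Hdac6 was the second member that passed with the block, at 34.5, 43.3 and 97.0 CPM with PB-4 and 28.5, 31.2 and 64.2 CPM with ATRA (0.55 ± 0.44, adjusted p = 0.470, and 0.49 ± 0.17, adjusted p = 0.0318, with the block). Each PB-4 library was above the ATRA library of its number, although the groups overlapped. Hdac10 had 4.38, 5.81 and 8.19 CPM with PB-4 and 9.56, 8.93 and 11.2 CPM with ATRA, with no overlap (-0.66 ± 0.33, adjusted p = 0.245, and 0.0604 with the block). Hdac2, lower than Control in both treatments on average, had 155.6 ± 49.4 CPM with PB-4 and 156.9 ± 30.4 CPM with ATRA (0.02 ± 0.30, adjusted p = 0.980). Hdac4 averaged 59.8 ± 9.85 CPM with PB-4 and 47.5 ± 5.06 CPM with ATRA (0.37 ± 0.22, adjusted p = 0.323). The other 5 members had log2 fold changes from -0.36 ± 0.32 (Hdac8) to 0.30 ± 0.20 (Hdac1), and that of Hdac7 (-0.08 ± 0.37) changed sign when library totals alone were used for scaling.

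Replicate 3 stood apart from replicates 1 and 2 of its group for several members, and in the same direction in all groups. Hdac6 was higher there by log2 differences of 1.32 with PB-4, 1.09 with ATRA and 0.97 in Control. Hdac5 was higher by 0.81, 0.72 and 0.46 and Hdac7 by 1.09, 0.82 and 0.28. Hdac3 and Hdac10 were also higher in each replicate 3, by 0.17 to 0.43 and by 0.26 to 0.65. Hdac2 was lower, by -0.82, -0.50 and -0.35, while Hdac1, Hdac4, Hdac8 and Hdac9 differed in sign between the groups. Over the 10826 genes with a mean of at least 5 CPM the median difference was -0.06, -0.01 and 0.07. A rise in every group by at least the smallest Hdac6 difference was seen in 2.42% of these genes, and a fall in every group by at least the smallest Hdac2 difference in 17.5%. Across genes in general, deviations of the replicate 3 libraries from their group means correlated at 0.601 to 0.698 between groups. A shared direction was thus not particular to the members. The comparison of replicate 3 was chosen after the values were seen. What distinguishes these 3 libraries, which were also the shallowest, is not stated in the labels, and the part of depth in the offsets was not tested.

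**Figure D3:**
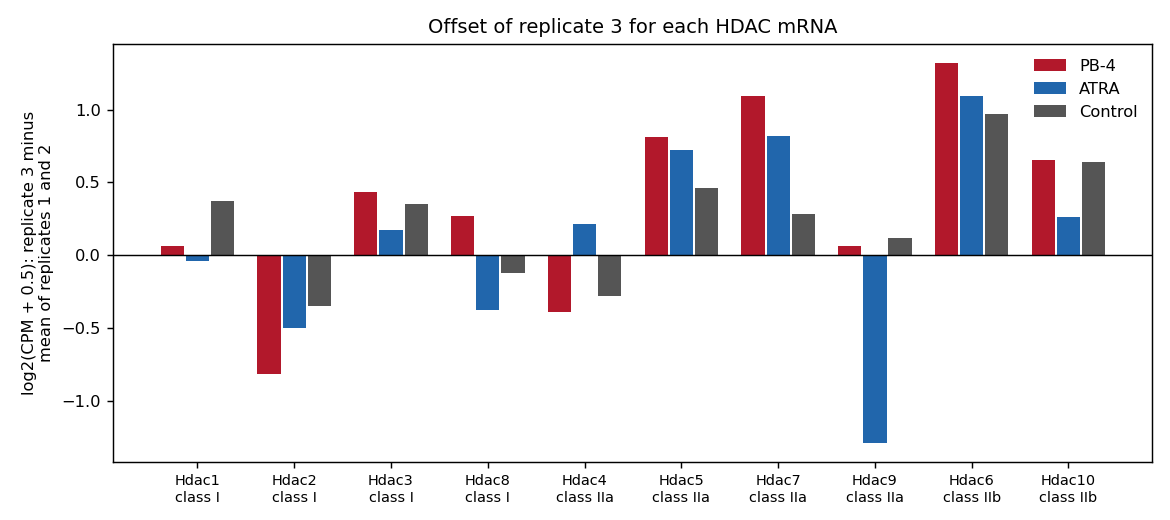
Difference of replicate 3 from the mean of replicates 1 and 2 of its group on the log2(CPM + 0.5) scale (vertical axis) for each HDAC mRNA, with bars for the PB-4, ATRA and Control groups. The 3 bars of Hdac6 run from 0.97 to 1.32 and those of Hdac2 from -0.82 to -0.35, whereas the Hdac9 bars are near 0 except for ATRA at -1.29.

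Ratios of counts within a library, which do not depend on scaling, showed the same offset. Hdac1 and Hdac2 are largely interchangeable in their complexes, and the ratio of Hdac1 to Hdac2 counts was 0.313, 0.394 and 0.651 with PB-4, 0.348, 0.279 and 0.430 with ATRA and 0.202, 0.217 and 0.346 in Control. In each group replicate 3 had the highest ratio, and within each replicate number Control had the lowest. Hdac5 to Hdac4 stood at 1.25, 1.82 and 3.48 with PB-4, 2.06, 2.01 and 2.90 with ATRA and 1.04, 1.29 and 1.93 in Control, with Control again the lowest of each number. These ratios were chosen after the values were seen and compare counts, not molecules per gene, since transcript lengths were not used here.

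Outside the classical family, Hdac11, the only class IV enzyme and a lysine defatty-acylase, was measured alongside. It had 33.6, 30.7 and 41.4 CPM with PB-4, 21.4, 15.7 and 30.0 CPM with ATRA and 10.7, 8.39 and 12.1 CPM in Control. The groups of PB-4 and ATRA both lay above Control without overlap. Hdac11 was higher with PB-4 by 3.39-fold (1.76 ± 0.25, adjusted p = 0.00311). With ATRA it had 1.09 ± 0.30 (adjusted p = 0.132, and 1.05 ± 0.17, adjusted p = 0.00583, with the block), and between PB-4 and ATRA 0.70 ± 0.28 (adjusted p = 0.138, and 0.73 ± 0.19, adjusted p = 0.00421, with the block).

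Sirtuins, the NAD-dependent deacylases of class III, are not inhibited by HDAC inhibitors of the short-chain fatty acid type. Counts for this list and those that follow stand beside the shares over all genes given above, for PB-4 against Control 11.5% higher and 4.59% lower (23.1% and 21.3% with the block). For ATRA against Control these shares were 0.441% and 0.625% (7.53% and 10.8% with the block). For PB-4 against ATRA they were 10.3% and 1.94% (18.7% and 11.1% with the block). Against Control, 1 of 7 was called higher with PB-4 and 0 lower (median 0.59). Sirt4, a mitochondrial member, had 13.8, 11.9 and 13.3 CPM with PB-4 and 6.83, 7.06 and 5.33 CPM in Control (1.01 ± 0.29, adjusted p = 0.0456). Its call was lost without any 1 of the 6 libraries (adjusted p = 0.0532 to 0.129) and without the filter on low counts (0.0652). Sirt1, the nuclear member that deacetylates histones and transcription factors, had 30.9, 21.7 and 15.03 CPM with PB-4 and 43.1, 42.4 and 31.7 CPM in Control (-0.80 ± 0.30, adjusted p = 0.112, and 9.7e-05 with the block). With ATRA Sirt1 had 21.1, 28.8 and 23.6 CPM (-0.69 ± 0.22, adjusted p = 0.185, and 0.0190 with the block). Both treated groups lay below Control without overlap at these levels. Scaled by library totals alone, Sirt1 in PB-4 replicate 1 (33.48 CPM) stood above Control replicate 3 (29.05 CPM). The cytoplasmic tubulin deacetylase Sirt2 had 0.59 ± 0.26 with PB-4 (adjusted p = 0.156, and 3.0e-04 with the block), mitochondrial Sirt5 had 0.70 ± 0.29 (0.140, and 0.00646 with the block) and nucleolar Sirt7 had 0.59 ± 0.25 (0.143, and 0.00293 with the block). Sirt3 (0.33 ± 0.28) and Sirt6 (0.09 ± 0.33) did not pass with PB-4 in either fit. With ATRA 0 of 7 were called and with the block Sirt6 was higher (0.58 ± 0.14, adjusted p = 0.0241) and Sirt1 lower. Between PB-4 and ATRA 0 of 7 were called in either fit.

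Among the genes for the opposing enzymes, the 10 histone acetyltransferases, 1 was called lower with PB-4 than in Control and 0 higher, with 10 of 10 log2 fold changes below 0 (median -0.26, beside 0.03 over all genes). Some were smaller than their SE, as for Kat2b (-0.03 ± 0.29) and Kat6b (-0.14 ± 0.28). The share of all genes below 0 was not counted, and the signs are not read as a result. Hat1, which acetylates newly made histones before they are deposited, had 53.8, 51.0 and 37.99 CPM with PB-4 and 110.5, 121.1 and 125.6 CPM in Control. Every PB-4 library lay far below every Control library (-1.33 ± 0.21, adjusted p = 0.00495). In ATRA-treated cells Hat1 had 40.4, 52.7 and 77.9 CPM, also without overlap with Control (-1.08 ± 0.25, adjusted p = 0.0912, and 0.00328 with the block). With the block 4 acetyltransferase genes were lower with PB-4 and 2 with ATRA, beside 21.3% and 10.8% of all genes. Between PB-4 and ATRA 0 were called (1 higher and 2 lower with the block, beside 18.7% and 11.1% of all genes).

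Of 43 genes for the corepressor complexes in which class I enzymes work, 1 was higher with PB-4 than in Control and 2 were lower (median -0.10), and with the block 6 and 16. Over all genes these shares were 11.5% and 4.59%, and 23.1% and 21.3% with the block. The lower genes encode the histone chaperones of the NuRD list, which also sit in the Sin3 complex. Rbbp4 had 98.2, 89.8 and 91.1 CPM with PB-4 and 173.2, 195.2 and 207.8 CPM in Control (-1.05 ± 0.19, adjusted p = 0.00833, and 0.0721 without PB-4 replicate 2). Rbbp7 had 91.5, 101.2 and 70.5 CPM with PB-4 and 201.5, 221.2 and 188.6 CPM in Control (-1.23 ± 0.22, adjusted p = 0.00739). Neither gene's groups overlapped. The higher gene was Rcor2 of the CoREST complex, with 34.6, 40.1 and 67.5 CPM with PB-4 and 18.5, 13.7 and 23.8 CPM in Control (1.35 ± 0.32, adjusted p = 0.0248). Its call was lost without PB-4 replicate 2, Control replicate 1 or Control replicate 2 (adjusted p = 0.0530, 0.0866 and 0.106). By list, NuRD had 2 of 13 lower, CoREST 1 of 9 higher, and Sin3 (13 genes), NCoR/SMRT (5) and MiDAC (3) had 0 calls. Rbbp4 and Rbbp7 were counted under NuRD only, so the 0 for Sin3 follows from that assignment. With the block Sin3 had 6 lower, NCoR/SMRT 1 higher and 2 lower, and MiDAC again 0.

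With ATRA 0 of the 43 complex genes were called against Control (median 0.01, and 2 higher and 7 lower with the block). Over all genes 0.441% were higher and 0.625% lower (7.53% and 10.8% with the block). DESeq2 called 1 of the 43 higher and 2 lower, so the lack of calls does not show that ATRA left these genes unchanged. Between PB-4 and ATRA 2 were higher and 2 lower (6 and 5 with the block), beside 10.3% and 1.94% of all genes (18.7% and 11.1% with the block). Chd5, a NuRD remodeler best known from neurons, had 2.02, 2.79 and 1.76 CPM with PB-4 and 16.3, 13.1 and 8.43 CPM with ATRA (-2.49 ± 0.39, adjusted p = 0.00419), and its relative Chd3 was lower too (-1.01 ± 0.23, adjusted p = 0.0202). Mbd2, a reader of methylated DNA, was higher, at 124.3, 149.5 and 65.1 CPM with PB-4 against 50.8, 49.4 and 36.3 CPM with ATRA (1.34 ± 0.32, adjusted p = 0.0284), as was the MiDAC gene Trerf1 (1.00 ± 0.25, adjusted p = 0.0299). The calls of Chd3, Mbd2 and Trerf1 were each lost without PB-4 replicate 1 or 2 or ATRA replicate 1 or 2, and that of Mbd2 also without ATRA replicate 3 (adjusted p = 0.0574 to 0.111 for Chd3, 0.0655 to 0.118 for Mbd2 and 0.0663 to 0.139 for Trerf1).

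Class IIa enzymes are moved out of the nucleus by kinases, and 4 of the 14 kinase genes listed were higher with PB-4 than in Control, with 0 lower (8 and 0 with the block). Over all genes 11.5% were higher, and 23.1% with the block. Of these 4 genes Camk1g and Camk1d reached the minimum count only because of the PB-4 libraries and so had to differ, and the count is not read as a result for the list. Sik1, a salt-inducible kinase, had 39.3, 40.6 and 58.4 CPM with PB-4 and 10.9, 11.9 and 21.2 CPM in Control, with no overlap (1.66 ± 0.31, adjusted p = 0.00978, and 0.0528 without Control replicate 2). The other 3 were calmodulin kinase genes of low level, named after their values were seen. Camk1g had 54, 74 and 43 counts with PB-4 and 0 in every Control library, at least 17.3-fold higher against a floor of 3 counts per library. Camk2b averaged 3.86 CPM with PB-4 and 0.437 CPM in Control (3.15 ± 0.58, adjusted p = 0.00894). Camk1d had 51, 62 and 4 counts with PB-4 and 0, 2 and 1 in Control. Its call was lost without PB-4 replicate 1 or 2 or Control replicate 1 or 2 (edgeR adjusted p = 0.0532 to 0.0636).

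With ATRA 0 of 12 kinase genes tested were called (median -0.12, and 1 lower with the block). Between PB-4 and ATRA 5 of 14 were higher and 0 lower (8 and 0 with the block), beside 10.3% of all genes higher (18.7% with the block), and Camk1g and Camk1d again passed the filter through PB-4 alone. Among the other 3 were Camk4 at 21.7, 18.8 and 5.89 CPM with PB-4 and 2.48, 2.05 and 0.172 CPM with ATRA (3.24 ± 0.76, adjusted p = 0.0254) and Sik1 (1.43 ± 0.30, adjusted p = 0.0159). Both calls were lost without some libraries. For Camk4 these were PB-4 replicate 1 or 2 and ATRA replicate 1 or 2 (adjusted p = 0.0553 to 0.0794). For Sik1 they were PB-4 replicate 2 and ATRA replicate 1 or 2 (adjusted p = 0.0562 to 0.0841). The Camk1d call was lost without PB-4 replicate 1 or 2 or any 1 ATRA library (edgeR adjusted p = 0.0591 to 0.130). The MEF2 genes, whose products class IIa enzymes bind, had 0 calls among the 3 tested in each comparison. Of the 7 Ywha family and Sfn genes, which encode the adaptors that hold class IIa enzymes in the cytoplasm, Ywhae, Ywhah and Ywhaz were lower with PB-4 than in Control (-0.74 ± 0.20, -0.75 ± 0.20 and -0.78 ± 0.20, adjusted p = 0.0411, 0.0341 and 0.0306). These 3 calls were lost with library totals alone (0.0986, 0.0834 and 0.0693), without the filter on low counts (0.0934, 0.0661 and 0.0599) and, for Ywhae, with RLE size factors (0.0514), as well as without any 1 of the 6 libraries (0.0506 to 0.189). With the block 5 of 7 were lower with PB-4 and 3 of 7 with ATRA, beside 21.3% and 10.8% of all genes.

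Among 6 genes for substrates and partners of HDAC6, Hsp90aa1, the inducible HSP90 gene, had 558.6, 435.7 and 294.1 CPM with PB-4 and 1305, 1554 and 915.6 CPM in Control. The PB-4 libraries were all lower (-1.56 ± 0.32, adjusted p = 0.0139), but the call was lost without PB-4 replicate 2 or Control replicate 2 (adjusted p = 0.0712 and 0.0601). All 6 had log2 fold changes below 0 with PB-4 (median -0.51), but those of Cttn (-0.01 ± 0.20) and Hsf1 (-0.13 ± 0.30) were smaller than their SE. These signs too are not read as a result. With the block 4 were lower, beside 21.3% of all genes. With ATRA 0 of 6 were called against Control (1 lower with the block). Against ATRA, the autophagy receptor gene Sqstm1 was lower, at 500.0, 592.5 and 752.7 CPM with PB-4 against 1450, 1725 and 1267 CPM with ATRA (-1.24 ± 0.25, adjusted p = 0.0144). This call was lost without PB-4 replicate 1 or 2 or ATRA replicate 1 or 2 (adjusted p = 0.0513 to 0.0723). In Control Sqstm1 had 661.1, 727.3 and 1415 CPM. With the block 4 of the 6 genes were lower with PB-4 than with ATRA, beside 11.1% of all genes.

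Genes of polyamine metabolism, the small-molecule substrates of HDAC10, moved in both directions with PB-4 (1 of 10 higher and 2 lower, median -0.03, and 4 and 2 with the block). Oaz2, an antizyme gene that limits polyamine synthesis and uptake, averaged 140.4 ± 35.4 CPM with PB-4 and 53.9 ± 4.77 CPM in Control (1.38 ± 0.24, adjusted p = 0.00675). Amd1, which makes the aminopropyl donor, was lower at 89.2, 86.5 and 46.4 CPM with PB-4 against 167.6, 203.6 and 163.7 CPM in Control (-1.28 ± 0.28, adjusted p = 0.0193). Azin1, the antizyme inhibitor gene, was lower as well (-0.84 ± 0.23, adjusted p = 0.0384). The groups did not overlap for these 3. The Amd1 call was lost without PB-4 replicate 2 or Control replicate 1 or 2 (0.0581 to 0.0811), and that of Azin1 without any of these or PB-4 replicate 3 (0.0693 to 0.158) and with library totals alone (0.0855). With ATRA and between PB-4 and ATRA 0 of 10 were called without the block. With the block 2 were higher and 3 lower with ATRA than in Control, beside 7.53% and 10.8% of all genes. Between PB-4 and ATRA 3 were higher and 2 lower with the block, beside 18.7% and 11.1%.

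**Figure D4:**
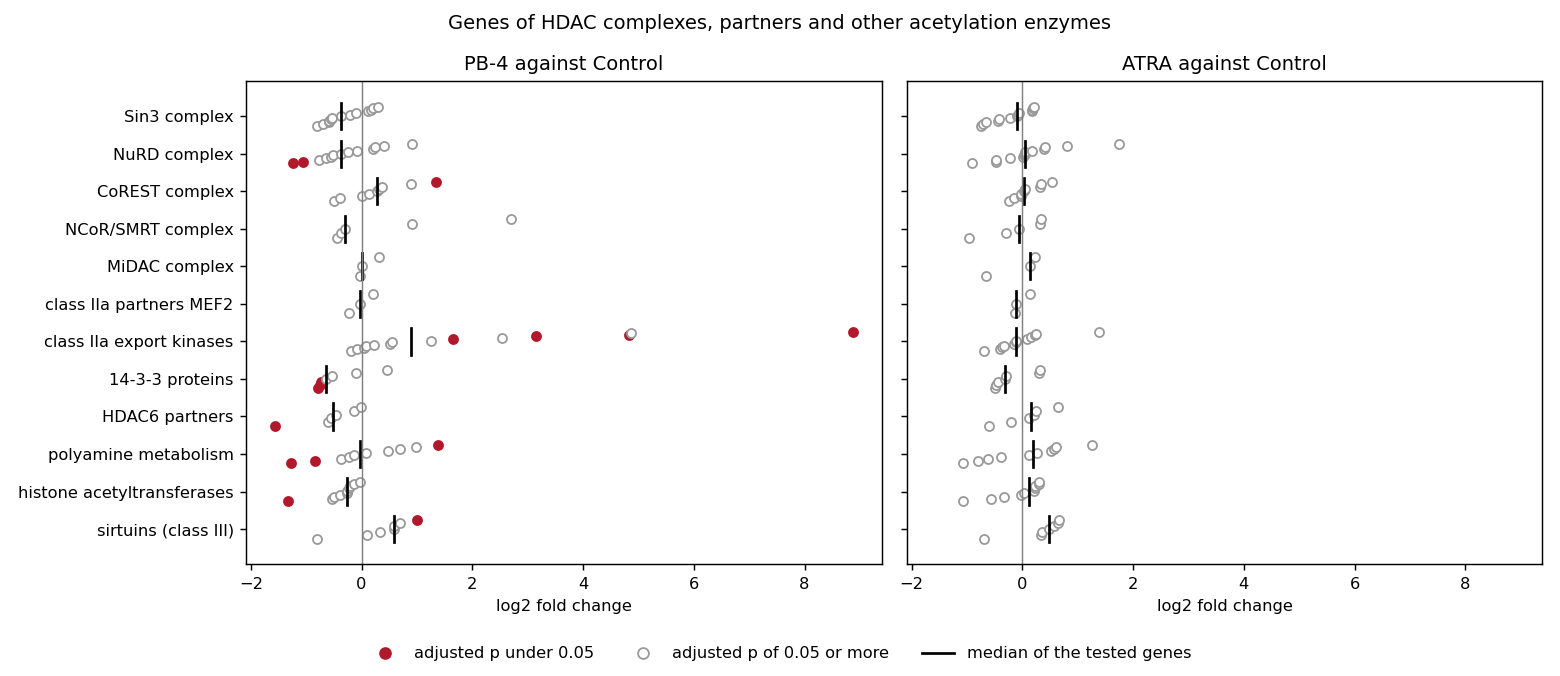
Log2 fold changes (horizontal axes, same scale) of the tested genes of each list for PB-4 against Control and ATRA against Control, with filled red points at an adjusted p under 0.05 and a black bar at the list's median. Of the lists shown, red points are found for PB-4 only, 4 of them among the class IIa export kinases. There Camk1g (the rightmost point) and Prkd1 (not called, at 4.86) had 0 counts in Control, so their fitted values are no measured sizes. With a floor of 3 counts per library for these genes, the kinase median for PB-4 against Control is 0.54 in place of 0.90.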

How the data were processed

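The authors deposited a table of raw counts per gene for the 9 total RNA libraries, in whole numbers and without normalization. By the submitters' processing notes reads were aligned with HISAT2 2.0.4 to GRCm38 (mm10), and for the counter, the annotation and the strand nothing is stated. Of 46095 entries, 27 rows that carried a date as name were dropped (0.214 to 0.260% of each library), and 0 columns were without a sample. A second deposited table of mature miRNA counts was not used here.

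Groups were compared with edgeR 4.0.16 (robust quasi-likelihood fit, TMM factors) in R 4.3.3, on genes whose 6 libraries summed to 10 counts or more, with Benjamini-Hochberg adjustment over all genes tested and a threshold of 0.05. CPM used TMM factors over all 9 libraries. Standard errors were derived as |log2 fold change| over the root of F. Alternatives were DESeq2 1.42.0, RLE factors, library totals, no count filter, filterByExpr, a joint fit of all 9 libraries, a replicate block, limma voom with quality weights (limma 3.58.1), replicates 1 and 2 only and leaving out each library. Same-numbered libraries of different groups had correlations of 0.361 to 0.698 between their deviations from the group means, above the 0.1 set for treating numbers as pairs. Libraries 1 and 2 also correlated across numbers (0.279 to 0.491), so this rule cannot show that the numbers are pairs. Replicate 3 correlated negatively with both (-0.624 to -0.411). Deviations within a group sum to 0, so negative values follow where the replicate 3 libraries correlate positively with each other. The block thus mainly sets replicate 3 apart.

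All 10 members, Hdac11 and the sirtuins are named, and up to 4 genes per other list and direction that were called and averaged 5 CPM or more. Members and lists were chosen with earlier results of these data known. Mideas was matched through the older symbol Elmsan1. Start-site windows were from RefSeq, and depth limits the precision as given in the counts. Scripts ran under Python 3.11.15, numpy 2.4.6, pandas 2.3.3 and matplotlib 3.10.9.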

Additional observations from a re-analysis of the deposited data

How the results depend on the processing

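Hdac9 was higher with PB-4 than with Control under every alternative run (log2 fold change 2.18 to 2.51) and higher than with ATRA in all (2.84 to 4.15), a call that was lost without ATRA replicate 1. Members higher and lower came to 3 and 2 for PB-4 against Control with the replicate block, 2 and 3 with voom and quality weights, and 2 and 2 with replicates 1 and 2 only, against 1 and 0. For ATRA against Control they came to 1 and 2 under each of these 3 alternatives, against 0 and 0. For PB-4 against ATRA they came to 2 and 0 with the block and 2 and 2 with the other 2 alternatives, against 1 and 0. DESeq2, RLE factors, library totals, no filter, filterByExpr and all 9 libraries in one fit gave the counts of the report for the members. Leaving out each library in turn gave 1 higher for PB-4 against Control, 0 for ATRA against Control and 0 to 1 for PB-4 against ATRA, and 0 lower in each. Over all genes, calls in the comparisons PB-4 against Control, ATRA against Control and PB-4 against ATRA were 3139, 191 and 2384, against 8630, 3288 and 5821 with the replicate block, 4405, 1248 and 3473 with DESeq2, 9129, 5236 and 8246 with voom, 7461, 6457 and 7131 with replicates 1 and 2 only, and 1341 to 3440, 10 to 980 and 1194 to 2761 with 1 library left out. Without the filter on low counts and with all 9 libraries in one fit 411 and 388 genes were called for ATRA against Control. With library totals the median change of all genes moved by 0.17 for PB-4 against Control, where 84.5% of calls were higher in place of 71.6%, and by 0.11 for PB-4 against ATRA. The cause of these differences was not tested. Hdac9 with ATRA rests on 2 to 60 counts per library, which limits its precision.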
